A study of Rattus norvegicus with 12 samples.

Results

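Cyclins, cyclin-dependent kinases (CDKs), CDK inhibitors, E2F factors and minichromosome maintenance (Mcm) genes, with Cdc6, Cdc7, Cdc20, Cdc25 and Cdc45, were followed in PC12 cells treated with PACAP38. They were taken by gene name from the array annotation, leaving out Cdk5, and gave 102 probes of 65 genes among the 41012 probes of the array. PC12 is a line from a rat adrenal pheochromocytoma that divides in serum and grows neurites after some factors, and PACAP38 is a neuropeptide (pituitary adenylate cyclase-activating polypeptide). Cells in medium with fetal bovine and horse serum received PACAP38 at 100 nM for 5, 10, 15, 30, 60 or 120 min, and each time point had its own control RNA without it. RNA of n = 6 per group was pooled. The PACAP38 pool and its control pool were labelled with Cy3 and Cy5 and hybridized against each other on 2 arrays per time point, with the dyes exchanged on the second, which made 12 arrays on 3 slides. Since the second array repeats the pools of the first, a time point counts as 1 replicate. The folds of the arrays are therefore given side by side instead of an error, and single time points carry no test.

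D-type cyclins with Cdk4 and Cdk6, and then E-type cyclins with Cdk2, drive a cell from G1 into S phase by phosphorylating the retinoblastoma protein, which frees E2F factors to switch on genes of DNA replication. Cdc6 and Mcm proteins load on replication origins in G1, A- and B-type cyclins with Cdk1 act later, and Cdc20 activates the ubiquitin ligase that ends mitosis. CIP/KIP inhibitors (Cdkn1a, b and c, the proteins p21, p27 and p57) bind cyclin-CDK complexes, and INK4 inhibitors (Cdkn2a, b, c and d) bind Cdk4 and Cdk6. PC12 cells are known to stop dividing when they differentiate.

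Promoter windows of 4 genes counted as higher or lower at 120 min are shown so that the regions upstream of these genes can be read beside their folds. Each runs from 250 bases before to 50 bases after the start of the gene, 5′ to 3′ on the strand of the gene, from RefSeq on build GRCr8. The windows are chr20:7150682-7150981 on the plus strand for Cdkn1a, chr1:99927860-99928159 on the minus strand for Ccne1, chr17:78175137-78175436 on the plus strand for Mcm10 and chr8:28110760-28111059 on the minus strand for Cdkn2d. Capitals mark the motifs found on either strand: TGACG (the core of the cAMP response element, contained in the full element TGACGTCA), CCAAT (the CCAAT box) and GGGCGG (the GC box). The full element and both E2F sites searched, TTTGGCGC and TTTCCCGC, matched in none of the 4 windows.
Cdkn1a: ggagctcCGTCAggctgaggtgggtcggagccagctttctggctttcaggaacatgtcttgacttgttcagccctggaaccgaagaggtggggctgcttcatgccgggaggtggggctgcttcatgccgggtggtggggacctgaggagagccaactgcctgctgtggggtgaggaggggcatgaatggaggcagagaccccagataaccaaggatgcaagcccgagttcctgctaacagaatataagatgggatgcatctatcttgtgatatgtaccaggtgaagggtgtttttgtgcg
Ccne1: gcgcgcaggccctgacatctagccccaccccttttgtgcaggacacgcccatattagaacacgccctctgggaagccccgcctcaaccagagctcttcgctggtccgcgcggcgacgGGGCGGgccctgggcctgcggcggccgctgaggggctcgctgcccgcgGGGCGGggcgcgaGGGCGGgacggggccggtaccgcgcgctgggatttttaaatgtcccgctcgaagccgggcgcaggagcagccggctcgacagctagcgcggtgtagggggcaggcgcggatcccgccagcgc
Mcm10: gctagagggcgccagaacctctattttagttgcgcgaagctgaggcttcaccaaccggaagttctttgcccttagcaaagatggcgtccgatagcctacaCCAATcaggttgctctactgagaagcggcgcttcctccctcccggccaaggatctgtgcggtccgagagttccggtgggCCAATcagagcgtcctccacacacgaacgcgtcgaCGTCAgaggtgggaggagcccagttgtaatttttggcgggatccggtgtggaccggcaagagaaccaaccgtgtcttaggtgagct
Cdkn2d: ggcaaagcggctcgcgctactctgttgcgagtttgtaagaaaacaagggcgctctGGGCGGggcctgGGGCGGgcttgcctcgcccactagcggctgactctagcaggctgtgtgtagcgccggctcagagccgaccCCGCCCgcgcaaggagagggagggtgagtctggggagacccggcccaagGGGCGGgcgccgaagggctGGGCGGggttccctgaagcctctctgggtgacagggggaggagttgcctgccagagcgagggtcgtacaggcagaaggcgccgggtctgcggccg
A window was found by symbol for 49 of the 65 genes. TGACG lay in 19 of the 49 windows and in 21.2% of the 33469 windows of all genes, CCAAT in 27 and in 37.5%, and GGGCGG in 36 and in 33.1%. The full element TGACGTCA was found in 3 windows (Ccnh, Cdkn2b and Mcm5) and in 1.83% of all, TTTGGCGC in 4 (Cdc25a, Mcm5, Mcm6 and Mcm8) and in 0.493%, and TTTCCCGC in 4 (E2f3, Mcm3, Mcm5 and Mcm7) and in 0.974%. A match is a stretch of letters, and binding was not measured.

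Of the 65 genes, 49 could be followed at every time point, with at least 1 of the RNAs well above background on both arrays, and 5 at some time points. The other 11 were tested at none: Ccnb3, Ccnd2, Ccng2, Cdc25a, Cdc7, Cdk14, Cdk15, Cdkn2a, Cdkn2b, E2f5 and E2f7. Signals of Ccnd2, the cyclin D2 gene, ran from 5.69 to 13.0 over both RNAs of all arrays, and those of Cdkn2a and Cdkn2b, the genes of p16 and p15, from 4.18 to 9.81. Markers of the line were present, with 7 of 8 chromaffin cell genes on the array above background in the control RNA at every time point, while 2 of 4 fibroblast, 3 of 4 glial and 2 of 3 white blood cell genes were above background at none. In the control RNA, 38.4 to 49.6% of spots rose well above background on each array.

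No member was counted at 2-fold before 120 min, and at 30 min Cdkn1b alone passed at 1.5-fold. To be counted, a probe had to reach a fold of 2 or more, or of 0.5 or less, at a spot p-value under 0.01 on each of the arrays. At 5, 10, 15 and 30 min, 0 of 81, 0 of 78, 0 of 80 and 0 of 80 tested member probes were counted, against 0%, 0.167%, 0.291% and 0.876% of all tested probes. At 60 min none of 82 was counted, against 1.93% of all probes higher and 0.84% lower. At 120 min, 2 of 81 were higher and 6 of 81 were lower, which is 2.47% and 7.41%, against 4.51% higher and 3.58% lower among all 17482 tested probes. With a fold of 1.5 in place of 2, the members numbered 3 higher and 1 lower at 60 min (all probes 3.13% and 2.48%). At 120 min they numbered 3 higher and 17 lower, 3.7% and 21%, where all probes gave 7.05% higher and 9.04% lower. By both rules the share counted as lower at 120 min was above that of all probes, and the share counted as higher was below it. The counts are small, and neither difference was tested. With normexp background correction and loess the lower members at 120 min numbered 3 of 81 at 2-fold (3.7%, all probes 0.692%) and 11 at 1.5-fold (13.6%, all probes 4.06%). With normexp and median centring they numbered 2 (2.47%, all probes 0.623%) and 10 (12.3%, all probes 3.65%). At 60 min and 1.5-fold, normexp and loess gave 1 member higher and 0 lower (all probes 1.65% and 0.638%). Normexp and median centring gave 0 and 0 there (all probes 1.03% and 0.136%). Several of the probes counted at 120 min from the processed signals are of the same genes. Both higher at 2-fold are of Cdkn1a. The 6 lower at 2-fold are of 5 genes, and the 17 lower at 1.5-fold of 13 genes.

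**Figure D1:**
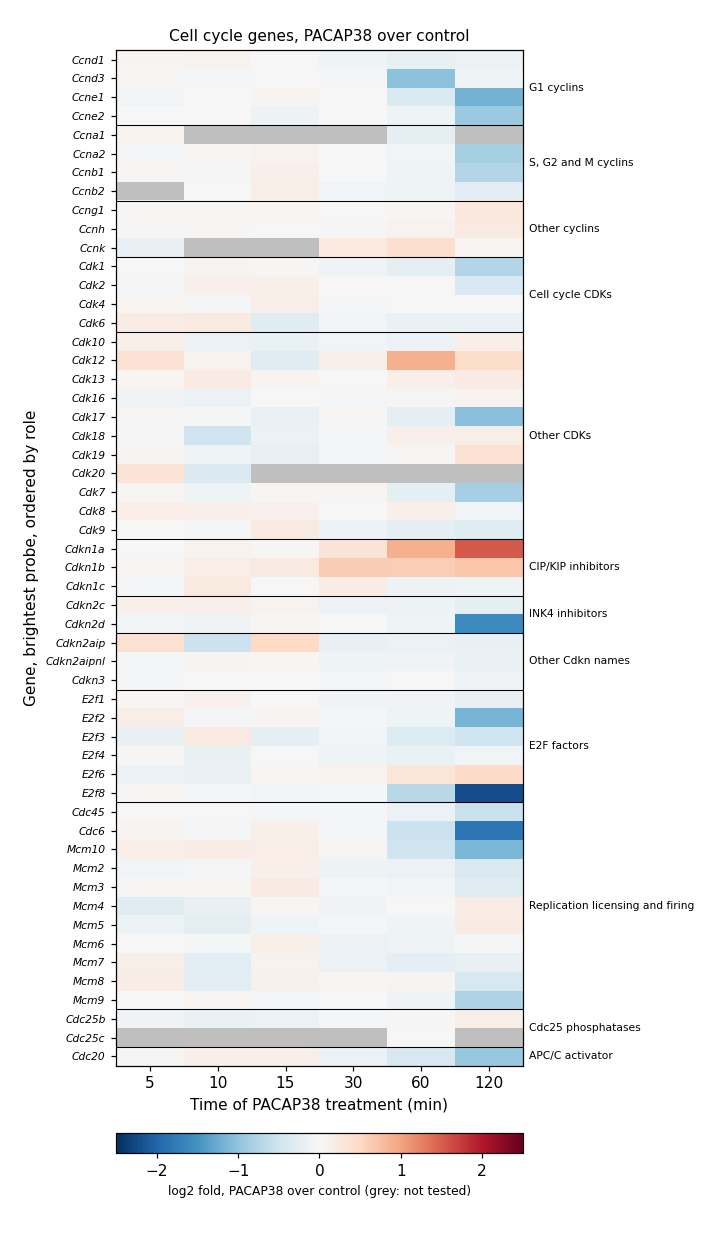
Mean log2 fold of PACAP38 over control for the brightest probe of each gene tested at 1 or more time points, by role (rows) and time in min (columns), with red for higher, blue for lower and grey where a gene was not tested. The strong colours lie in the columns of 60 and 120 min, with Cdkn1a at 1.54 and E2f8 at -2.21 at 120 min.

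The median log2 fold of the tested members lay between -0.02 and 0.04 up to 30 min, then reached -0.10 and -0.17 at 60 and 120 min. All tested probes had medians of -0.02 and -0.03 there. The lower quartile of the members at 120 min was -0.73 and that of all probes -0.36. The direction was the same on both arrays for 27 of 81 members at 5 min. At 10, 15 and 30 min this held for 30 of 78, 45 of 80 and 34 of 80 members, and at 60 min for 53 of 82. At 120 min it held for 61 of 81, of which 45 were lower on both. These shares were near those of all tested probes, 33.3% against 35.6% at 5 min and 75.3% against 73.6% at 120 min. The lower direction on both arrays was thus seen in 55.6% of the members and 40.1% of all probes at 120 min. The 2 arrays of a member probe lay 0.08 to 0.16 log2 units (median over members, by time point) to each side of their mean. RNA came from whole cultures, so a shift in the share of cells in a phase and a change of RNA per cell cannot be told apart.

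**Figure D2:**
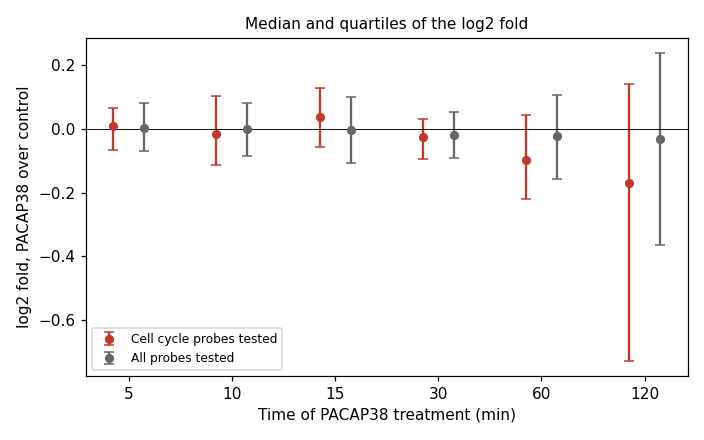
Median (points) and quartiles (bars) of the log2 fold of PACAP38 over control for the tested cell cycle probes (red) and all tested probes (grey) at each time point in min. The lower quartile of the cell cycle probes is at -0.73 at 120 min, against -0.36 for all probes.

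Cdkn1a and Cdkn1b, both CIP/KIP inhibitors, were higher. Cdkn1a, which codes for p21 (probe at chr20:7386596-7386655 on build rn4, as for all probe positions here), had processed signals at 120 min of 18160 in control and 58472 in PACAP38 RNA on the array with PACAP38 in Cy5, and of 19591 and 51337 on the array with PACAP38 in Cy3. Both signals of PACAP38 lay above both of the control. The folds were 3.22 and 2.62, with a mean of 2.90. They had been 1.90 and 1.81 at 60 min. Before that they were 1.35 and 1.16 at 30 min, whereas at 15 min both were 1.02. The probe is spotted 10 times on each array, and the SD of the log2 ratio over its 7 to 9 unflagged spots was 0.02 to 0.04, so at 120 min the log2 folds of 1.69 and 1.39 on the arrays differed by more than the spots within each. The second probe, with control signals of 159 and 194, gave folds of 3.69 and 2.13 at 120 min.

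Cdkn1b, the gene of p27 (chr4:171846350-171846409), reached its level earlier. At 15 min its folds on the arrays were 1.21 and 1.12. They had reached 1.51 and 1.60 by 30 min, with 1.56 and 1.51 following at 60 min. At 120 min the signals were 1383 and 1299 in control and 2191 and 2171 in PACAP38 RNA, which gave 1.58 and 1.67. It passed the 1.5-fold rule from 30 min on and was never counted at 2-fold. With normexp and loess its mean folds at 30, 60 and 120 min were 1.41, 1.44 and 1.44, and none of these passed 1.5-fold. The SD over its 10 spots was 0.04 to 0.13 log2 units. Mean folds of its second probe at 30, 60 and 120 min were 1.28, 1.27 and 1.54. Cdkn1c, the gene of p57, had a mean fold of 0.932 at 120 min, with 1.09 on one array and 0.794 on the other, and its other 3 probes gave 1.09, 1.21 and 1.12.

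Of the INK4 inhibitors, Cdkn2d, the gene of p19-INK4d, was lower. At 120 min its signals were 4912 and 3426 in control and 1518 and 1210 in PACAP38 RNA, without overlap, and the folds were 0.309 and 0.353. The folds had been 0.959 and 1.04 at 30 min, then 0.887 and 0.978 at 60 min, so the difference appeared between the last time points. Cdkn2c, the gene of p18, had a mean fold of 0.862 at 120 min. Cdkn2a and Cdkn2b were not above background in either RNA there. The 3 genes with other Cdkn names (Cdkn2aip, Cdkn2aipnl and Cdkn3) lay between 0.876 and 0.942.

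**Figure D3:**
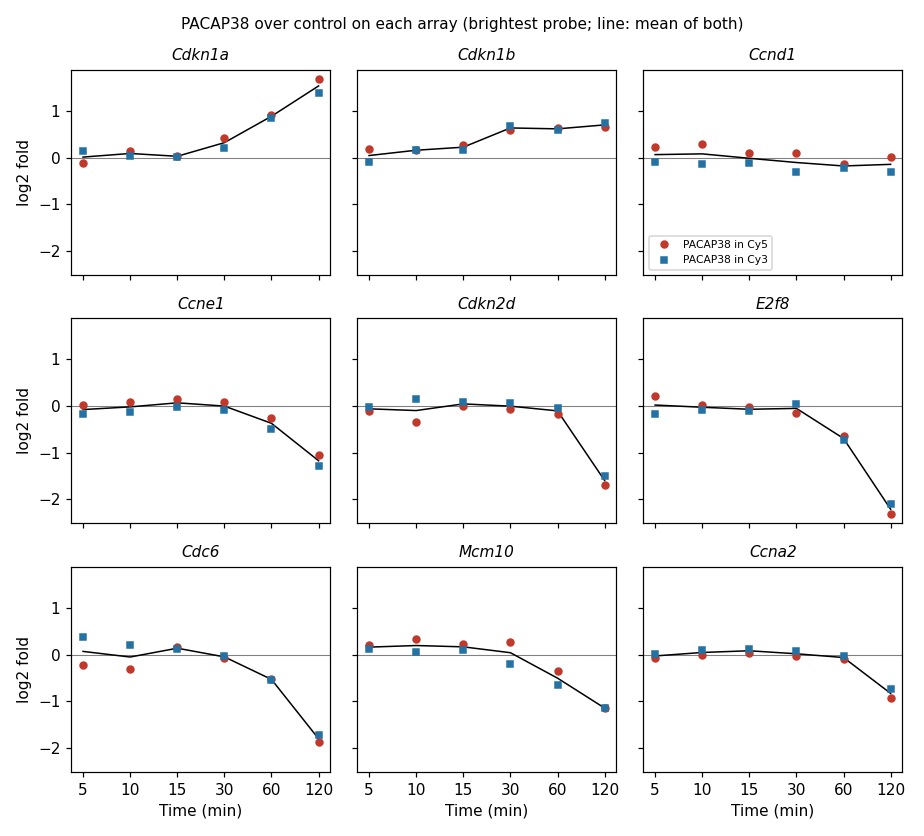
Log2 fold of PACAP38 over control (vertical axis) against time in min (horizontal axis, evenly spaced) for the brightest probe of 9 genes, with PACAP38 in Cy5 as red circles, PACAP38 in Cy3 as blue squares and the mean as a line. Cdkn1a climbs to 1.54 and E2f8 and Cdc6 drop to -2.21 and -1.81 at 120 min, while Ccnd1 stays between -0.18 and 0.08.

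Both E-type cyclins were counted as lower at 120 min, Ccne1 at 2-fold and Ccne2 at 1.5-fold, while Ccnd1 and Ccnd3 were not counted and Ccnd2 was not tested. Ccne1 (cyclin E1, chr1:90568197-90568256) had signals of 5614 and 4916 in control and 2708 and 2004 in PACAP38 RNA, and folds of 0.482 and 0.408. At 60 min its folds were 0.843 and 0.710, and at the 4 earlier time points its mean fold lay between 0.949 and 1.05. The second Ccne1 probe, with control signals of 160 and 176 at 120 min, had mean folds of 1.11, 0.887, 0.809, 0.661, 0.559 and 0.434 from 5 to 120 min. From the processed signals the probes thus gave a like fold at 120 min and differed at 15, 30 and 60 min. With normexp and loess they differed at 120 min too, at 0.458 and 0.827. Ccne2 (cyclin E2) had folds of 0.518 and 0.536 at 120 min, counted at 1.5-fold, and 0.943 and 0.908 at 60 min.

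Ccnd1 (cyclin D1) had signals of 2730 and 3042 in control and 2762 and 2463 in PACAP38 RNA at 120 min. Its folds were 1.01 and 0.809, and its mean fold stayed between 0.883 and 1.06 over all time points. Its second probe had a mean fold of 0.954 at 120 min. Ccnd3 (cyclin D3) stood at 0.930 at 120 min. Its fold of 0.493 at 60 min rests on the array with PACAP38 in Cy5 (0.258), where the signals were 72.4 in control and 18.7 in PACAP38 RNA; on the other array they were 770 and 725 and the fold was 0.941.

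Among the cyclins of S, G2 and M phase, Ccna2 (cyclin A2) and Ccnb1 (cyclin B1) were lower at 120 min by the 1.5-fold rule. Signals of Ccna2 were 5516 and 4691 in control and 2891 and 2816 in PACAP38 RNA, with folds of 0.524 and 0.600. Its other probes had mean folds of 0.632 and 0.598. Ccnb1 had folds of 0.592 and 0.613, but its second probe, at control signals of 1583 and 1217, had 0.832 and 0.938. At 60 min the mean folds of Ccna2 and Ccnb1 were 0.956 and 0.932. Ccnb2 had a mean fold of 0.825 at 120 min, and at 5 min it was read from 1 array, the spot being flagged on the other. Ccna1 (cyclin A1) was at least 1.19-fold lower at 120 min, where it was well above background on 1 array in control RNA and on neither in PACAP38 RNA. The other cyclins tested, Ccng1, Ccnh and Ccnk, had mean folds of 1.20, 1.17 and 1.04.

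Of the kinases that pair with these cyclins, Cdk1 gave the largest difference. Its signals at 120 min were 57486 and 58095 in control and 30128 and 40469 in PACAP38 RNA, and its folds were 0.524 and 0.697. It was not counted by either rule, since the fold on the second array missed 1.5-fold and its p-value there was 0.013. Cdk2 had a mean fold of 0.767 at 120 min and Cdk4 one of 1.01. Cdk4 stayed between 0.979 and 1.11 over all time points. The 3 probes of Cdk6 did not give one direction at 120 min: the brightest had 0.889, another 0.819 and the dimmest, with control signals of 186 and 197, 1.60.

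Several of the other CDKs act in transcription. Cdk7, the kinase that activates other CDKs and phosphorylates RNA polymerase II, was lower at 120 min on both of its probes by the 1.5-fold rule, with folds of 0.561 and 0.563 on one and 0.440 and 0.594 on the other. Cdk17 had folds of 0.474 and 0.502 there, while its other 2 probes were not above background. Cdk12, a kinase of RNA polymerase II, reached folds of 2.19 and 1.57 at 60 min. They were 1.37 and 1.37 at 120 min, from a dim probe with control signals of 88.3 and 93.9 at 120 min. With normexp and loess its mean fold at 60 min was 1.20 in place of 1.85, which ends the 1.5-fold call. The other CDKs tested at 120 min lay between 0.806 (Cdk9) and 1.31 (Cdk19).

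E2F8, a repressor of the E2F family, had the lowest fold of all members. E2f8 (chr1:98640447-98640506) had signals of 4214 and 3739 in control and 845 and 866 in PACAP38 RNA at 120 min. Every PACAP38 signal lay below every control signal, and the folds were 0.201 and 0.232. At 60 min the folds were 0.636 and 0.600, which passed the 1.5-fold rule but not with normexp and loess (mean fold 0.673), and from 5 to 30 min the mean fold was between 0.954 and 1.02. The second probe gave 0.338 and 0.286 at 120 min. Its mean fold there was 0.756 with normexp and loess and 0.721 with normexp and median centring. E2f2 had folds of 0.571 and 0.348 at 120 min from signals of 123 and 162 in control and 70.2 and 56.2 in PACAP38 RNA, and its 1.5-fold call was lost with normexp and loess (mean fold 0.836). Its 2 arrays differed at every earlier time point too, with 1.65 and 0.771 at 5 min and 1.20 and 0.720 at 60 min. E2f1, an activator of replication genes, had a mean fold of 0.862 at 120 min, E2f3 0.710, E2f4 0.956 and E2f6, a repressor, 1.40.

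The genes of origin licensing split into members that were lower and members that stayed near control. Cdc6, the loader of the Mcm complex (chr10:87690604-87691212), had signals of 370 and 322 in control and 101 and 96.8 in PACAP38 RNA at 120 min, and folds of 0.272 and 0.300. With normexp and loess its mean fold was 0.661, which ends the call at either fold. At 60 min its folds were 0.697 and 0.685. Mcm10, a replication factor outside the Mcm2-7 ring (chr17:84375391-84375450), had signals of 601 and 609 in control and 270 and 276 in PACAP38 RNA and folds of 0.449 and 0.453, after 0.778 and 0.636 at 60 min. Its mean fold was 0.674 with normexp and loess, and the call was lost as well. A second Mcm10 probe was above background in neither RNA up to 60 min. At 120 min it was at least 2.36-fold higher, from signals of 11.3 in control and 13.2 in PACAP38 RNA on one array and 26.7 and 413 on the other, so the probes disagree and the second rests on 1 array. Mcm9 had folds of 0.665 and 0.516, and its 1.5-fold call was lost with normexp and loess (mean fold 0.726) and with normexp and median centring (0.645). Cdc45, a part of the replicative helicase, had folds of 0.727 and 0.628.

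The 6 subunits of the Mcm2-7 helicase ring were not counted at any time point. At 120 min their mean folds were 0.776 for Mcm2, 0.810 for Mcm3, 1.14 for Mcm4, 1.16 for Mcm5, 0.962 for Mcm6 and 0.874 for Mcm7. Cdc20 had signals of 7176 and 6390 in control and 3991 and 3129 in PACAP38 RNA at 120 min and folds of 0.556 and 0.490, after 0.794 and 0.718 at 60 min. Of the Cdc25 phosphatases, which remove the inhibitory phosphates of CDKs, only Cdc25b was tested at 120 min, with folds of 1.37 and 0.906.

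**Figure D4:**
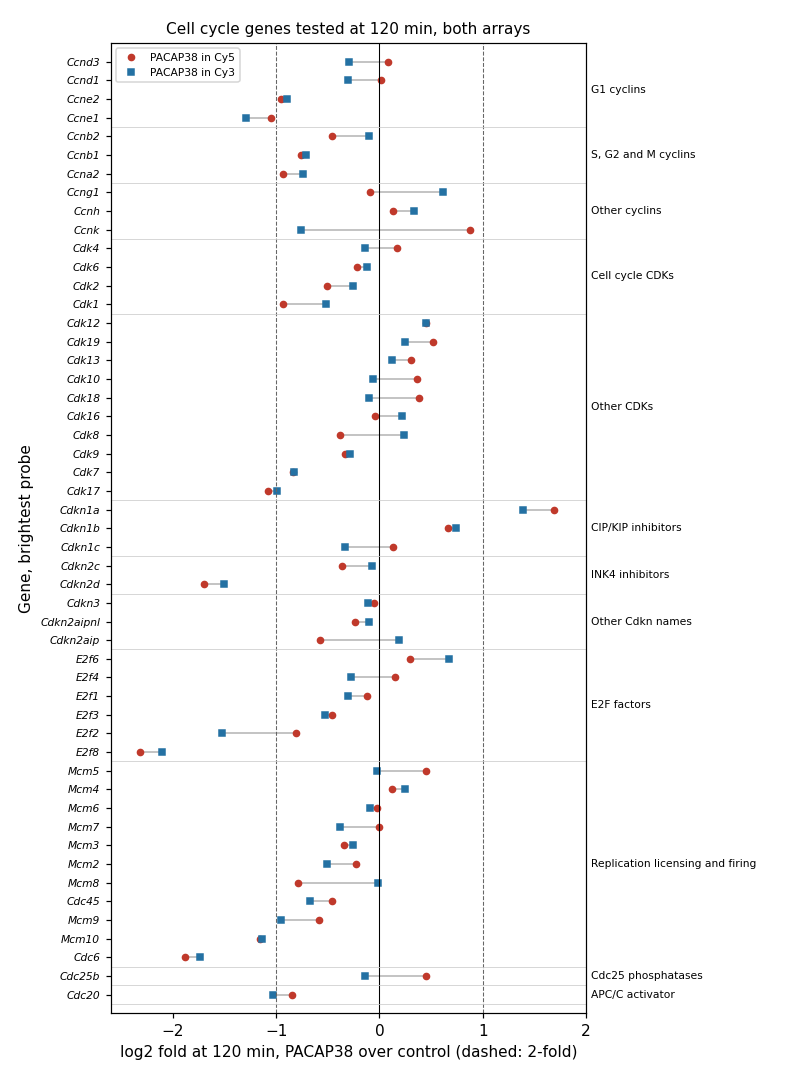
Log2 fold at 120 min (horizontal axis) for the brightest probe of the 51 genes tested there, by role, with PACAP38 in Cy5 as red circles and in Cy3 as blue squares joined by a line. E2f8, Cdc6, Cdkn2d, Ccne1 and Mcm10 lie beyond the 2-fold line to the left on both arrays, and Cdkn1a alone lies beyond it to the right on both.

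By brightest probe, 51 genes were tested at 120 min, and 35 had a mean fold below 1 and 16 above. The 13 genes lower by the 1.5-fold rule at 120 min were Ccna2, Ccnb1, Ccne1, Ccne2, Cdc20, Cdc6, Cdk17, Cdk7, Cdkn2d, E2f2, E2f8, Mcm10 and Mcm9. Of these, Cdc6, E2f2, Mcm10 and Mcm9 were not called with normexp and loess, nor Ccnb1, Ccne2, E2f2, Mcm10 and Mcm9 with normexp and median centring. At 60 min, 12 of the 13 were below 1 on both arrays, with mean folds from 0.618 to 0.956, and 5 of them (E2f8, Cdc6, Mcm10, Cdc20 and Ccne1) had a mean fold below 0.8. At 30 min the mean folds of the 13 lay between 0.904 and 1.04. Of 25 genes with several tested probes at 120 min, 22 had all their probes on the same side of 1.

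A list of 58 other cell cycle genes was read beside the members, with 56 on the array by name. The values given for this list are from the processed signals only. At 120 min 52 were tested, of which 2 were higher and 7 lower by the 2-fold rule (all probes 4.51% and 3.58%), with a median log2 fold of -0.26 (all probes -0.03). Lower were Orc6 and Cdt1, which license origins (mean folds 0.369 and 0.369), Aurka and Ttk, kinases of mitosis (0.412 and 0.468), Skp2, the F-box protein that marks p27 for degradation (0.447), Cks2, a CDK subunit (0.421), and Ccnf, cyclin F (0.313). Higher were Gadd45b and Gadd45g, stress genes whose proteins bind CDK1 and p21, with 3.66 and 3.05. Before 120 min, Fbxo5, an inhibitor of the ubiquitin ligase of mitosis, was the gene of the list counted as lower at 2-fold. Its folds at 60 min were 0.442 and 0.116. The probe was not tested at 10, 15, 30 or 120 min, and at 5 min its arrays gave 2.55 and 1.00. Cdt1 passed 1.5-fold at 60 min with a mean fold of 0.480. Gadd45g was lower by the 1.5-fold rule at 30 min (mean fold 0.629) and higher at 2-fold at 60 min (2.40). Gadd45b was counted from 15 min on, with mean folds of 2.57, 5.94 and 5.95 at 15, 30 and 60 min, while no cyclin, CDK or inhibitor of the members was counted before 120 min. Ccnl1, a cyclin of RNA splicing, had mean folds of 2.62, 3.55 and 1.87 at 30, 60 and 120 min.

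Whether folds moved with time was tested by the slope of the log2 fold on log2 time over the 6 time points, with limma and Benjamini-Hochberg adjustment over 18720 probes. The slope was positive at an adjusted p below 0.05 in 0.924% of all probes and negative in 0.379%, and among the 85 members tested in 1 and 1. Cdkn1a rose on its dimmer probe, by 0.37 log2 units per doubling of time (SE 0.05, adjusted p = 0.0429 from limma), and on its brightest probe the slope was 0.33 (SE 0.06, adjusted p = 0.0593 from limma). Ccne1 fell on its dimmer probe, with a slope of -0.29 (SE 0.02, adjusted p = 0.0307 from limma), and on its brightest probe the slope was -0.22 (SE 0.07, adjusted p = 0.117 from limma). E2f8 (slope -0.43, adjusted p = 0.0881), Cdc6 (-0.36, adjusted p = 0.0900), Mcm10 (-0.28, adjusted p = 0.0709) and Cdkn1b (0.16, adjusted p = 0.0643) did not pass the limma test. Neither call held with slide as a block (adjusted p = 0.891 for both from limma), and each was lost when any time point but 5 min was left out. Each slide carries neighbouring time points, 60 and 120 min the third, so slide and time are in part the same.

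The last time point was also set against the 5 earlier ones with limma, a contrast chosen after the folds had been seen. It called 6.67% of all probes higher and 13.4% lower, and of the 85 members 1 higher and 22 lower. Its later arm is a single replicate, taken to vary like the others, and it was picked because 120 min stood out, so it restates the folds given above and adds no support to them.

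**Figure D5:**
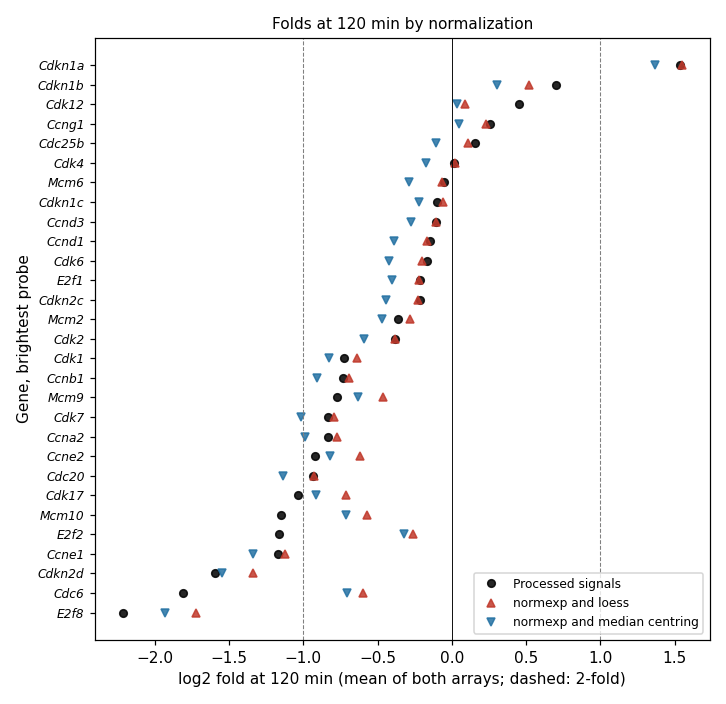
Log2 fold at 120 min (horizontal axis) of the named genes tested there, brightest probe, from the processed signals (black circles), after normexp and loess (red triangles up) and after normexp and median centring (blue triangles down). Cdc6 and E2f2 move toward 0 in both, and the mean fold of E2f8 moves from 0.216 to 0.303 with normexp and loess.

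The folds at 120 min also differed with the background correction and the normalization, which were changed together. With normexp background correction and loess, the mean fold at 120 min was 2.92 for Cdkn1a, 0.303 for E2f8, 0.396 for Cdkn2d and 0.458 for Ccne1. These genes kept their 2-fold calls on the brightest probe, and Cdc6, Mcm10 and the dimmer probes of Cdkn1a and E2f8 lost theirs. With normexp and median centring the brightest E2f8 probe and Cdkn2d kept theirs, and Cdkn1a and Ccne1, with mean folds of 2.58 and 0.395, did not, since 1 array of each was short of 2-fold (1.67 for Cdkn1a and 0.550 for Ccne1). The dimmer probes of Cdkn1a and Ccne1, which gave the 2 calls of the slope, had folds of 1.61 and 0.827 at 120 min with normexp and loess.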

How the data were processed

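PC12 cells were compared at 6 time points on 12 Agilent rat arrays, 2 per time point from the same RNA pools with exchanged dyes. Per the labels, the authors used Feature Extraction 11.0.1.1, while the methods of their paper name another version. The intensity values used were deposited as background-subtracted, dye-normalized processed signals beside the raw intensity of spot and background, and the deposited p-value of a spot belongs to its log ratio. The deposited table of ratios is the log10 of Cy5 over Cy3, as made by the authors. No value had been turned for the dye exchange.

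Ratios of PACAP38 to control were taken per array, without the 1639 control spots and the flagged outliers, and spots of a probe were averaged. Folds are geometric means over the pair of arrays. A probe was tested where 1 RNA was well above background on both arrays of the time point; a lower bound stands where only 1 RNA was. No spot was saturated. Signal over background and the number of arrays limit the precision. The brightest probe stands for a gene. Positions on rn4 are those of the array annotation, and 89 of 102 probes matched RefSeq by accession, each with the same symbol.

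Members and lists were chosen with earlier results of these data known. Genes were named when a probe was counted, when the fold was 1.5 on both arrays at 60 or 120 min, when the slope was called, or as 25 listed cyclins, CDKs, inhibitors and replication genes. Other genes are named after their values were seen. The slope was fitted with limma 3.58.1 in R 4.3.3 and tested on simulated data without a slide effect. There, 81% of probes with a slope of 0.5 and 99% with a slope of 1 were recovered, with 12 false calls in 192. The slopes printed for the members are smaller than 0.5 in size, so no recovery is known for slopes of their size. Other steps used Python 3.11.15, pandas 2.3.3, numpy 2.4.6 and matplotlib 3.10.9. The alternatives were normexp (offset 50) with loess or median centring, the deposited table, other filters, fold rules, single arrays, genes in place of probes, other probes of a gene, a slide block, minutes for log2 time and omission of a time point. The proteome was not analysed here.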

Additional observations from a re-analysis of the deposited data

How the results depend on the processing

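At 120 min the count of member probes, 2 higher and 6 lower, became 1 and 3 with normexp and loess, 0 and 2 with normexp and median centring, and 1 higher gene with genes in place of probes; 17 were lower at 1.5-fold. At 60 min the count of 0 higher and 0 lower became 3 and 1 at 1.5-fold and 2 and 2 with only PACAP38 in Cy5. At 30 min it became 1 at 1.5-fold or with only PACAP38 in Cy5, and at 10 min 1 with only PACAP38 in Cy5. The filters kept these counts within 1.5 times. The deposited table holds the same ratios as the processed signals, so its counts could not differ.

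The median log2 fold of the members moved by more than the SD of the medians of the single arrays as follows. This SD is smaller than the difference between the arrays, and some of the shifts listed were smaller than that difference. With normexp and loess it was 0.00542, 0.0316, -0.0448 and -0.11 at 5, 15, 60 and 120 min. With normexp and median centring it was 0.0608, 0.0708, 0.175, -0.0438, -0.0251 and -0.27 from 5 to 120 min, where that centring put the median of all tested probes at -0.12 at 120 min. Relative to all probes the members were 0.14 log2 units lower at 120 min with the processed signals, 0.09 with normexp and loess and 0.15 with normexp and median centring. With only PACAP38 in Cy5 it was -0.00536, 0.0489 and -0.0849 at 5, 15 and 60 min, and with only PACAP38 in Cy3 0.000502, 0.0534, 0.0564 and -0.0796 at 5, 10, 15 and 60 min. Without a filter on dim probes it was -0.000967 at 30 min and -0.0906 at 60 min.

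The slope called 2 members. It called 0 with normexp and loess, with normexp and median centring, without a filter or with slide as a block (38, 45, 30 and 5 at an unadjusted p below 0.05), 8 where both RNAs were above background throughout, 30 with time in minutes, 23 for 120 min against the earlier time points (chosen after seeing the data, with 1 replicate in that arm), and 0 to 3 with a time point left out (3 without 5 min). Over all probes the slope called 244, and 33, 1, 0 (6563 at an unadjusted p below 0.05), 0 (852), 976, 5616 and 3764 in the same order of alternatives. Without 5, 10, 15, 30, 60 or 120 min it called 415, 0, 0, 12, 1 or 0 probes (4330, 4766 and 2755 at an unadjusted p below 0.05 where the count was 0). No counted fold of a named gene changed direction under these normalizations, single arrays or other tested probes, while the second Mcm10 probe, which was not tested, gave the opposite direction at 120 min. Many folds were nearer 1 with normexp and loess, while with normexp and median centring some lay further from 1. The cause of these differences was not tested. No paired analysis was possible because the groups share only 1 replicate number; each ratio already sets PACAP38 against the control of its own time point.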
